A study of Mus musculus with 28 samples.

Results

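Mitochondrial carriers are the proteins that exchange nucleotides, phosphate, cofactors, carboxylates, amino acids and iron across the mitochondrial inner membrane. The genes were taken by name, as every symbol of the *Slc25a* series together with *Ucp2* and *Ucp3*, which gave 39 of the 12732 genes in the table. Of these 39 genes, 34 had a mean of at least 0.5 over all libraries and were tested, and the other 5 are given by their values. The naming rule also took in *Slc25a17*, whose product is known as a carrier of peroxisomes, and *Slc25a46*, whose product sits in the mitochondrial outer membrane.

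RNA sequencing of the tibialis anterior (TA), a muscle of the lower hindlimb built mainly from fast-twitch fibers, compared 14 *mfn1,2* mice with 14 wt littermates, 1 library per mouse. The *mfn1,2* animals carried Myl1-Cre, which acts in fast-twitch fibers, with 1 null and 1 floxed allele each of *Mfn1* and *Mfn2*, the genes of the mitofusins that fuse mitochondrial outer membranes. The wt animals carried 1 floxed and 1 intact allele of each gene and no Cre is given for them, and by the cross all pups of both genotypes inherited a floxed mDendra reporter allele. Each genotype had 4 mice at 4, 6 and 8 weeks of age and 2 at 10 weeks, both groups untreated, but the columns of the table name the genotype only, so age was not analysed here and is part of the spread between replicates.

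Almost all proteins of a mitochondrion are made in the cytosol, and the carriers are encoded in the nucleus and inserted into the inner membrane without a cleaved presequence in most cases. A carrier opens alternately to either side of the membrane and in most cases swaps one solute for another. In muscle the best known are the ADP/ATP carriers, which hand the ATP made by oxidative phosphorylation to the contractile apparatus, and the phosphate carrier, which supplies its other substrate.

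The values are expression levels per gene and library that behave as if divided by transcript length, so that levels of different genes can be set side by side. Libraries were brought to a common scale with median-of-ratios factors, and these scaled values are given throughout. A gene is said to have risen or fallen in *mfn1,2* muscle where limma gave a Benjamini-Hochberg adjusted *P* under 0.01 over the 10804 genes tested. The summed values of a library, as deposited, ranged from 426029 to 564123 in wt and from 326643 to 419290 in *mfn1,2* muscle, and the mitochondrially encoded genes took 49.4 to 71.3% of them in wt and 24.9 to 35.5% in *mfn1,2* muscle. The targeted *Mfn1* averaged 52.4 ± 12.4 (SD, n = 14) in wt against 12.7 ± 3.13 in *mfn1,2* libraries (log2 fold change −2.04). *Mfn2* averaged 47.5 ± 4.59 against 30.3 ± 4.98 (log2 fold change −0.66), but its log2 fold change was 0.40 with equal library totals and 0.18 with *Actb* scaling. Clustering set 4 wt libraries and 1 *mfn1,2* library apart from the rest of their genotype, and leaving these 5 out changed the call of 1 carrier, *Slc25a42*.

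Promoter sequence was searched for every carrier with a listed transcript start. The windows with a match are printed, together with those of *Slc25a5* and *Slc25a39*. RefSeq on GRCm38.p6 gave transcript starts for 31 of the 39 carriers, with 40 windows of the 250 bases before a start, and 32851 such windows over all genes. The cAMP response element TGACGTCA was in 2 carrier windows, those of *Slc25a25* and *Slc25a36*, and in 1.55% of all windows. The pair is shown because these were the only carriers with this element, and capitals mark it. It began 150 bases before the start of *Slc25a25* at chr2:32424067-32424316 on the minus strand, 1 of the 3 windows of that gene, and 161 bases before the start of *Slc25a36* at chr9:97111042-97111291 on the minus strand.
Slc25a25: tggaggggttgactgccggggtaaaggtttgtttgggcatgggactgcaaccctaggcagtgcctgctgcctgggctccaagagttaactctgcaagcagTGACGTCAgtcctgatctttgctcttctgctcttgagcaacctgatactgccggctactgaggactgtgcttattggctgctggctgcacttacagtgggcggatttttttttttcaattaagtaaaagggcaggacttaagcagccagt
Slc25a36: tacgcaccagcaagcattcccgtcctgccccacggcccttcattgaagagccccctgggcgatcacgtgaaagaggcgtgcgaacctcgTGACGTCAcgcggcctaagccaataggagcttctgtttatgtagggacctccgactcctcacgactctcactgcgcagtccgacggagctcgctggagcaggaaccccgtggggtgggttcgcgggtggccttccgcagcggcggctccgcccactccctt

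The site of NRF1, searched on both strands like the other motifs, was in 1 carrier window and in 3.74% of all windows. The carrier window was that of the phosphate carrier gene *Slc25a3* at chr10:91123968-91124217 on the minus strand. The match began 214 bases before the start and is in capitals.
Slc25a3: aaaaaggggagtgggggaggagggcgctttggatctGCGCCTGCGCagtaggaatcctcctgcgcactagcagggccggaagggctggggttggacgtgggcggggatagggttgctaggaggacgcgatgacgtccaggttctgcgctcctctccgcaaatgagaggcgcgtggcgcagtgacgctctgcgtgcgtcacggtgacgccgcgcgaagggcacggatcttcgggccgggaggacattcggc
The windows of *Slc25a5* at chrX:36795347-36795596 on the plus strand and of *Slc25a39* at chr11:102407518-102407767 on the minus strand, 2 of the 3 carriers whose *mfn1,2* libraries all exceeded wt, held none of the motifs searched and so have no capitals.
Slc25a5: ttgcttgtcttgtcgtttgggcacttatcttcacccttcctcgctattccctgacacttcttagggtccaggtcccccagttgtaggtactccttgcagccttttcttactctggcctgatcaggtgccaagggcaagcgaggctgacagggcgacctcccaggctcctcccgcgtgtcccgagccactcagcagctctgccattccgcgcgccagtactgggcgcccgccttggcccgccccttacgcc
Slc25a39: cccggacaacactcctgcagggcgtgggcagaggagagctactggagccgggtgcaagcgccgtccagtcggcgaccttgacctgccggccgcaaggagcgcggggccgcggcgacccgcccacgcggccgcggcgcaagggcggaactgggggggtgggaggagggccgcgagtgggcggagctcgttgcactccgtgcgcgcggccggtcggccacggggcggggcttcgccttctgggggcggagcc
No carrier window held the C/EBP-ATF response element TGATGNAA, which was in 3.45% of all windows, or the estrogen-related receptor motif TCAAGGTCA, which was in 0.387%. No motif overlapped another in the windows shown. The median GC content was 58.2% over the carrier windows and 52.4% over all windows. A match is a run of letters and says nothing of binding, and the absence of one says only that these letters are not in the 250 bases.

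In the comparison of genotypes, 10 of the 34 tested carriers rose and 11 fell. Over all genes tested 28.2% rose and 24.9% fell, so the shares of the carriers, 29.4% and 32.4%, were near this background. The median log2 fold change of the tested carriers was −0.07, against 0.03 over all genes, and the range was −2.33 for *Slc25a25* to 1.63 for *Slc25a22*. These calls are relative to the other genes: with the values as deposited 19 of 35 carriers rose and 2 fell, where 62.3% of all genes rose and 4.95% fell. In 3 of the 34, *Slc25a5*, *Slc25a22* and *Slc25a39*, the lowest *mfn1,2* library exceeded the highest wt library, as in 6.16% of all genes tested. In *Slc25a25* alone the highest *mfn1,2* library was under the lowest wt library, as in 5.08% of all genes. The carriers moved in both directions, and each substrate class had log2 fold changes on both sides of 0 except the uncoupling proteins and their relatives, whose 4 tested members were below 0.

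**Figure D1:**
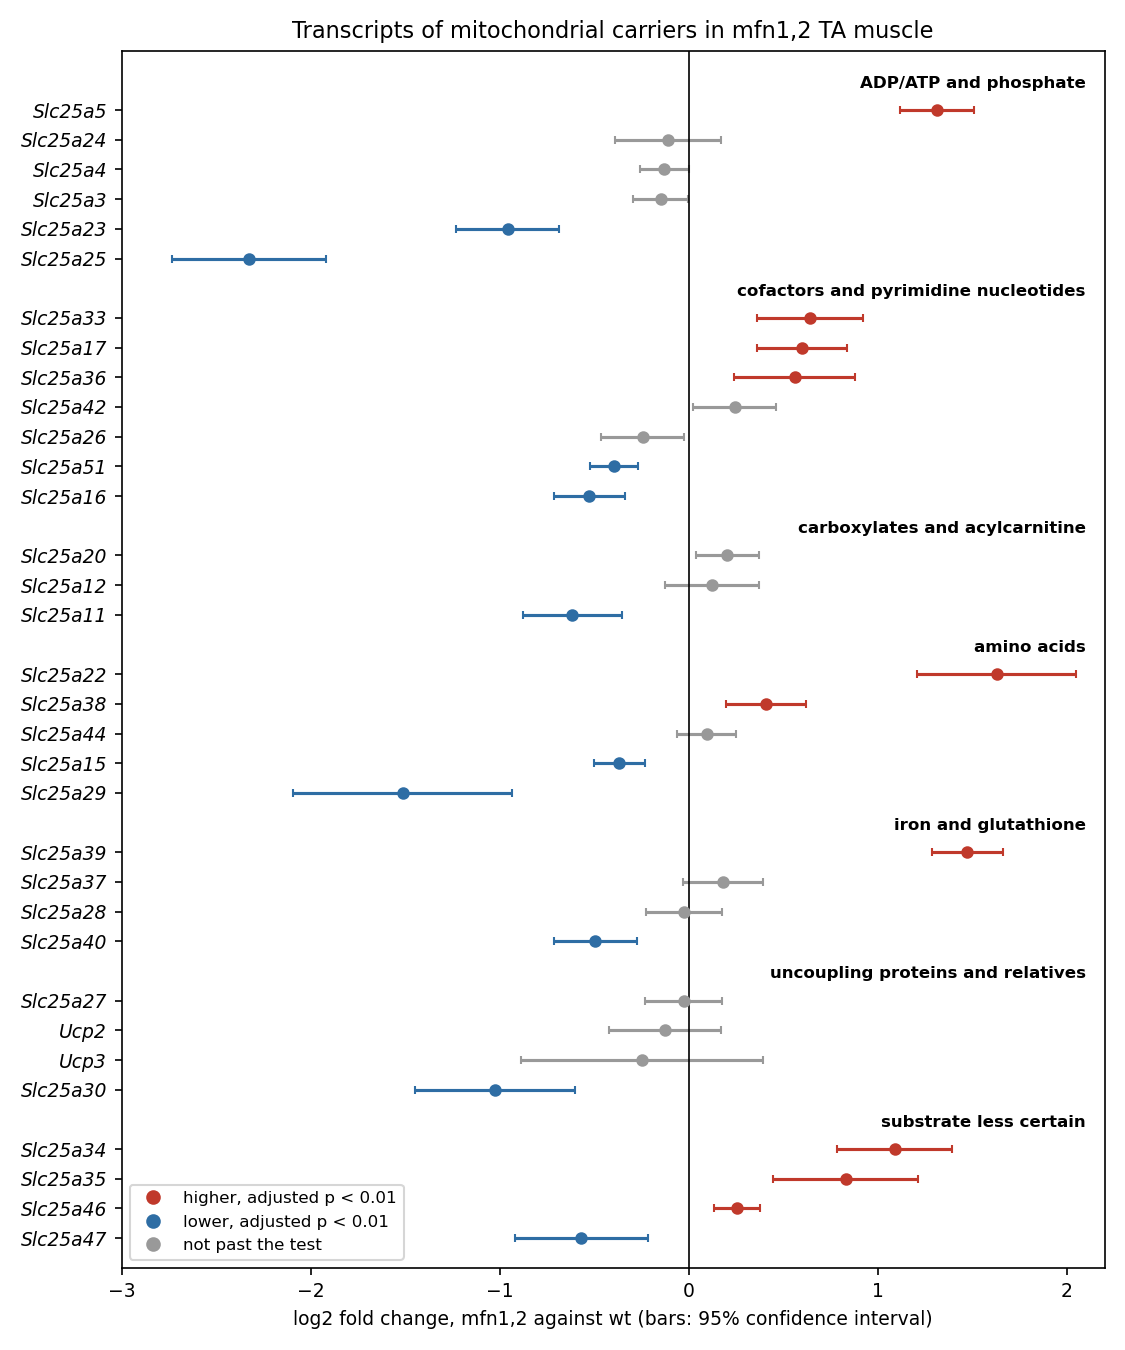
Log2 fold change of 33 of the 34 tested carriers in *mfn1,2* against wt TA muscle (x axis, bars are 95% confidence intervals, n = 14 mice per genotype), ordered within 7 substrate classes (y axis). Red marks the 10 carriers that rose, blue 10 that fell relative to the other genes and grey the 13 that did not pass the test, and the values run from −2.33 for *Slc25a25* to 1.63 for *Slc25a22*.

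Of the 6 carriers of adenine nucleotides and phosphate, 1 rose, 2 fell and 3 did not pass. *Slc25a4* encodes the ADP/ATP carrier of heart and skeletal muscle, and it was the most abundant carrier in both genotypes. In wt muscle it ranged from 850 to 1121 with a median of 963, and in *mfn1,2* muscle from 760 to 1017 with a median of 856. The ranges overlapped over most of their length, and the log2 fold change of −0.13 (95% interval −0.26 to −7.2e-05) did not pass the test (limma, adjusted *P* = 0.0745). *Slc25a5*, which encodes the ADP/ATP carrier found in most proliferating tissues, ranged from 8.67 to 18.5 with a median of 12.5 in wt and from 25.4 to 36.7 with a median of 30.4 in *mfn1,2* muscle. No library of one genotype reached the other, and *Slc25a5* rose by a log2 fold change of 1.31 ± 0.10 (SE; limma, adjusted *P* = 7.24e-13), or 2.45-fold in the means. Its window without motif matches is among those printed above. *Slc25a5* has a processed pseudogene and close paralogs, and how reads shared with these were counted is not given in the sources used here.

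The ratio of *Slc25a4* to *Slc25a5* within a library does not depend on how libraries are scaled. Its geometric mean was 77.3 in wt, with libraries from 56.8 to 108, and 28.4 in *mfn1,2* muscle, with libraries from 22.6 to 39.8. The ratio was 2.72-fold lower in *mfn1,2* muscle, with no overlap (2-sided permutation test, 100000 resamples, *P* = 2e-05, the smallest these can give, adjusted *P* = 4.5e-05 over 9 pairs). *Slc25a5* still made up only 3.41 ± 0.454% of the 2 transcripts together in *mfn1,2* muscle, against 1.29 ± 0.247% in wt.

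*Slc25a3* encodes the phosphate carrier, which also brings copper into the matrix. It was second to *Slc25a4* in both genotypes, at 79.5 to 150 (median 95.001) in wt and 74.0 to 98.7 (median 89.5) in *mfn1,2* muscle. The ranges overlapped, and the log2 fold change of −0.15 (95% interval −0.29 to −0.01) did not pass the test (limma, adjusted *P* = 0.0652). The 4 wt libraries that stood apart held 102 to 150, above or at the top of the 79.5 to 102 of the other wt libraries.

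The calcium-regulated carriers exchange ATP-Mg for phosphate and so set the size of the adenine nucleotide pool of the matrix. Among them *Slc25a25* was the most abundant in wt, with libraries from 16.7 to 37.5 and a median of 23.6. In *mfn1,2* muscle it ranged from 2.27 to 13.6 with a median of 4.56. The highest *mfn1,2* library, at 13.6, was the one that stood apart in the clustering, and it still lay below the lowest wt library. *Slc25a25*, whose window with the cAMP response element is printed above, fell by 2.33 on the log2 scale (SE 0.20; limma, adjusted *P* = 2.13e-11), from rank 6 among the carriers in wt to rank 15. Its wt mean was 4.66-fold above the *mfn1,2* mean.

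Its relative *Slc25a23* ranged from 1.13 to 3.42 (median 2.22) in wt and from 0.634 to 1.36 (median 1.18) in *mfn1,2* muscle, with overlap at the low end of wt. It fell by 0.96 on the log2 scale (limma, adjusted *P* = 2.94e-07). *Slc25a24*, the third member of this group, averaged 1.44 ± 0.527 in wt and 1.29 ± 0.270 in *mfn1,2* muscle (log2 fold change −0.11, 95% interval −0.39 to 0.17). Set against *Slc25a24* in the same library, *Slc25a25* was at a ratio of 16.5 in wt and 3.54 in *mfn1,2* muscle, with no overlap (permutation test, adjusted *P* = 4.5e-05). *Slc25a23* was at a ratio of 1.49 and 0.827 to *Slc25a24* (permutation test, adjusted *P* = 0.000468), with overlap. The ATP-Mg carriers therefore differed in their change within libraries, with *Slc25a25* and *Slc25a23* lower against *Slc25a24*.

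**Figure D2:**
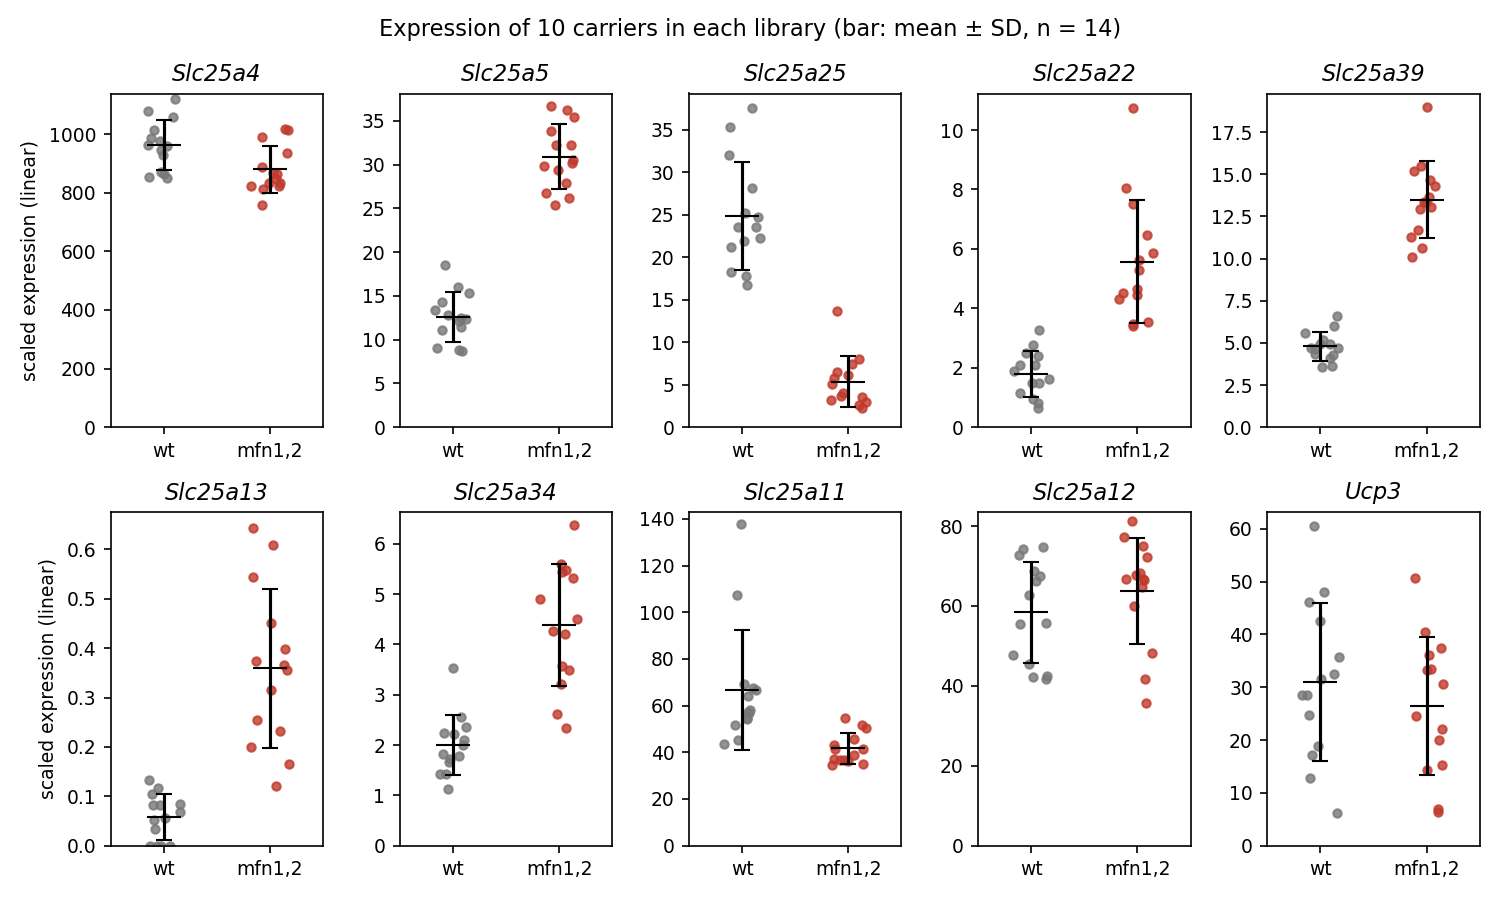
Scaled expression (y axis, linear, starting at 0) of 10 carriers in each wt (grey) and *mfn1,2* (red) library, where each point is 1 mouse and bars give the mean ± SD of n = 14. The points of *Slc25a5*, *Slc25a22* and *Slc25a39* are all higher in *mfn1,2* muscle and those of *Slc25a25* all lower, while *Slc25a4*, *Slc25a12* and *Ucp3* overlap.

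Of the 8 carriers of cofactors and pyrimidine nucleotides, 3 rose, 3 fell and 2 did not pass. *Slc25a33* and *Slc25a36* encode the pyrimidine nucleotide carriers, which supply precursors for mitochondrial DNA and RNA. *Slc25a33* ranged from 2.69 to 9.27 (median 6.31) in wt and from 8.01 to 12.1 (median 9.11) in *mfn1,2* muscle, and rose by a log2 fold change of 0.64 (limma, adjusted *P* = 0.000169). The low end of wt was held by the libraries that stood apart, which lay between 2.69 and 5.27, and the log2 fold change was 0.40 without them (adjusted *P* = 0.000571). *Slc25a36* ranged from 2.07 to 6.16 (median 4.56) in wt and from 2.67 to 9.53 (median 6.75) in *mfn1,2* muscle, and rose by 0.56 (limma, adjusted *P* = 0.00259). Both genes had overlapping genotypes, and their ratio to each other was 1.34 in wt and 1.42 in *mfn1,2* muscle (permutation test, adjusted *P* = 0.733).

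The falls of this class were in cofactor carriers. *Slc25a51*, which encodes the carrier that brings NAD into the matrix, ranged from 5.76 to 8.45 (median 7.57) in wt and from 4.81 to 6.15 (median 5.42) in *mfn1,2* muscle, and fell by 0.40 (limma, adjusted *P* = 3.05e-06). The genotypes of *Slc25a51* met only at their edges. *Slc25a16*, linked to the supply of coenzyme A, averaged 4.17 ± 0.760 in wt and 2.84 ± 0.398 in *mfn1,2* muscle and fell by 0.53. *Slc25a42*, the carrier of coenzyme A, was at 4.00 ± 0.937 and 4.70 ± 0.859 and did not pass (log2 fold change 0.24, limma, adjusted *P* = 0.0524), but passed without the libraries that stood apart (0.38, adjusted *P* = 0.00365). *Slc25a26*, the carrier of S-adenosylmethionine, had a log2 fold change of −0.24 (adjusted *P* = 0.0491), which passed without the wt library that the table numbers 2, a number that is no replicate number of the labels (−0.30, adjusted *P* = 0.0097). The peroxisomal *Slc25a17* averaged 2.21 ± 0.579 in wt and 3.35 ± 0.599 in *mfn1,2* muscle and rose by 0.60 (limma, adjusted *P* = 5.26e-05).

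Of the 6 carriers of carboxylates and acylcarnitine, 1 fell, 2 did not pass and 3 were too low to test. *Slc25a11* and *Slc25a12* carry the solutes of the malate-aspartate shuttle, which moves reducing equivalents of cytosolic NADH into the matrix. *Slc25a11*, the 2-oxoglutarate/malate carrier, ranged from 43.6 to 138 (median 57.7) in wt and from 34.7 to 54.6 (median 40.2) in *mfn1,2* muscle. The highest wt value came from the 4 libraries that stood apart, which held 66.5 to 138 against 43.6 to 67.6 in the other 10, and the 1 such *mfn1,2* library was the highest of its genotype. *Slc25a11* fell by 0.62 on the log2 scale (limma, adjusted *P* = 0.000127), and by 0.44 without these libraries (adjusted *P* = 5e-05).

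*Slc25a12*, the calcium-activated aspartate/glutamate carrier of muscle and brain, ranged from 41.8 to 74.8 (median 59.3) in wt and from 35.8 to 81.2 (median 66.7) in *mfn1,2* muscle. The genotypes overlapped almost fully, and the log2 fold change of 0.12 (95% interval −0.13 to 0.37) did not pass (limma, adjusted *P* = 0.385). *Slc25a13*, the liver form of the same carrier, was under the filter, with wt libraries from 0 to 0.134 (median 0.0619) and *mfn1,2* libraries from 0.120 to 0.644 (median 0.361). It was listed at 0 in 4 wt libraries and in no *mfn1,2* library, and the genotypes overlapped only at 0.120 to 0.134. With no filter on low values its log2 fold change was 1.51 (limma, adjusted *P* = 2.7e-08), a size set by the pseudocount, since it was 0.35 with a pseudocount of 1 and 2.84 with 0.01. The ratio of *Slc25a12* to *Slc25a13*, each with 0.1 added, was 378 in wt and 144 in *mfn1,2* muscle (permutation test, adjusted *P* = 4.5e-05), but with 1 added it did not differ past the threshold (adjusted *P* = 0.161). An addition of 1 exceeds every value of *Slc25a13*, so this setting cannot show whether *Slc25a13* changed.

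*Slc25a20* encodes the carnitine/acylcarnitine carrier, which takes fatty acyl groups to beta-oxidation. It was at 10.5 to 14.7 (median 13.2) in wt and 10.6 to 20.2 (median 14.6) in *mfn1,2* muscle. The log2 fold change of 0.20 did not pass (limma, adjusted *P* = 0.031), and passed without the *mfn1,2* library numbered 1 in the table (0.24, adjusted *P* = 0.00775). *Slc25a20* also passed when libraries were scaled to equal totals of nuclear genes (0.35, limma, adjusted *P* = 0.00243). The citrate carrier *Slc25a1* was at 0 to 0.898 in wt and 0 to 0.797 in *mfn1,2* muscle, and the dicarboxylate carrier *Slc25a10* at 0.161 to 0.922 and 0.169 to 0.819. Both were low and overlapped almost fully.

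Of the 5 carriers of amino acids, 2 rose, 2 fell and 1 did not pass. *Slc25a22*, a glutamate carrier, ranged from 0.630 to 3.26 with a median of 1.75 in wt and from 3.41 to 10.7 with a median of 4.96 in *mfn1,2* muscle. The genotypes did not overlap, although the highest wt and the lowest *mfn1,2* libraries lay close together. *Slc25a22* rose by a log2 fold change of 1.63 ± 0.21 (SE; limma, adjusted *P* = 5.56e-08), the largest rise among the tested carriers, and moved from rank 27 to rank 13 by mean level. Its mean was 3.10-fold higher in *mfn1,2* muscle.

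*Slc25a29*, a carrier of basic amino acids, ranged from 0.204 to 3.32 with a median of 1.24 in wt and from 0 to 0.846 with a median of 0.282 in *mfn1,2* muscle, 1 library of which was listed at 0. It fell by 1.51 on the log2 scale (limma, adjusted *P* = 3.18e-05), with overlap, and it passed the filter on low values through its wt level only. *Slc25a15*, the ornithine carrier of the urea cycle, averaged 2.33 ± 0.227 in wt and 1.78 ± 0.200 in *mfn1,2* muscle and fell by 0.37 (limma, adjusted *P* = 1.79e-05). *Slc25a38*, which brings in glycine for heme synthesis, was at 1.83 ± 0.435 and 2.41 ± 0.340 and rose by 0.41 (limma, adjusted *P* = 0.00117). *Slc25a44*, a carrier of branched-chain amino acids, was at 2.42 ± 0.353 and 2.59 ± 0.341 and did not pass (adjusted *P* = 0.284).

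Of the 4 carriers of iron and glutathione, 1 rose, 1 fell and 2 did not pass. *Slc25a39* and *Slc25a40* encode close relatives that carry glutathione into mitochondria. *Slc25a39* ranged from 3.58 to 6.60 with a median of 4.70 in wt and from 10.1 to 19.0 with a median of 13.4 in *mfn1,2* muscle. The genotypes stood well apart, and *Slc25a39* rose by a log2 fold change of 1.47 ± 0.09 (SE; limma, adjusted *P* = 1.18e-14), the smallest *P* among the carriers, and 2.81-fold in the means. *Slc25a40* went the other way, at 1.18 to 2.13 (median 1.79) in wt and 0.724 to 1.53 (median 1.19) in *mfn1,2* muscle, and fell by 0.49 on the log2 scale (limma, adjusted *P* = 0.000206).

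The ratio of *Slc25a39* to *Slc25a40* was 2.71 in wt, with libraries from 1.88 to 4.12, and 10.6 in *mfn1,2* muscle, with libraries from 6.98 to 18.6. It was 3.91-fold higher with no overlap (permutation test, adjusted *P* = 4.5e-05). The mitoferrins, which bring in iron for heme and iron-sulfur clusters, did not pass. *Slc25a37* (mitoferrin-1) averaged 1.59 ± 0.300 in wt and 1.81 ± 0.317 in *mfn1,2* muscle (log2 fold change 0.18, 95% interval −0.03 to 0.39), and *Slc25a28* (mitoferrin-2) averaged 4.48 ± 0.922 and 4.40 ± 0.813 (−0.02, −0.23 to 0.18). Their ratio was 0.369 and 0.426 (permutation test, adjusted *P* = 0.149).

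**Figure D3:**
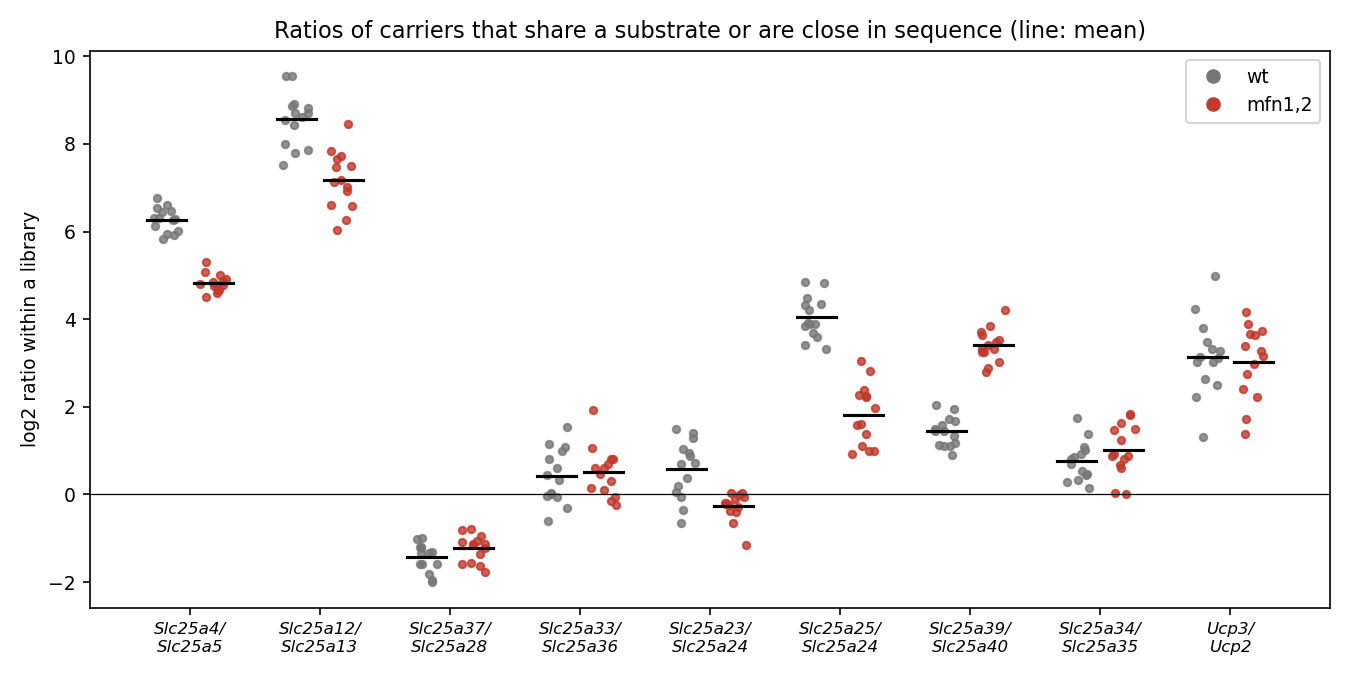
Log2 ratio of the carriers of 9 pairs within each library (y axis, 0.1 added to each value), for pairs that share a substrate or are close in sequence (x axis), in wt (grey) and *mfn1,2* (red) muscle, with each point 1 mouse and the line the mean of n = 14. The genotypes do not overlap for *Slc25a4*/*Slc25a5*, *Slc25a25*/*Slc25a24* and *Slc25a39*/*Slc25a40*.

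Of the 5 uncoupling proteins and relatives, 1 fell, 3 did not pass and 1 was too low to test. *Ucp3*, the uncoupling protein homolog of skeletal muscle, varied widely in both genotypes, at 6.23 to 60.5 (median 30.1) in wt and 6.34 to 50.7 (median 27.6) in *mfn1,2* muscle. Its coefficient of variation was 48.0% in wt and 49.4% in *mfn1,2* muscle, against 8.88% and 9.09% for *Slc25a4*. With this spread the log2 fold change of −0.25 had a 95% interval of −0.89 to 0.39 and did not pass (limma, adjusted *P* = 0.503). *Ucp2*, known in part from immune cells, was at 1.80 to 4.34 (median 3.03) in wt and 1.69 to 5.04 (median 2.70) in *mfn1,2* muscle (log2 fold change −0.13, adjusted *P* = 0.463). The ratio of *Ucp3* to *Ucp2* was 8.86 and 8.14 (permutation test, adjusted *P* = 0.733).

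Of the relatives, *Slc25a30*, first described in kidney, was at 0.648 to 3.06 (median 1.91) in wt and 0.322 to 2.21 (median 0.791) in *mfn1,2* muscle and fell by 1.03 on the log2 scale (limma, adjusted *P* = 8.2e-05). *Slc25a27*, known from brain, was at 1.38 ± 0.297 and 1.34 ± 0.197 (log2 fold change −0.03). *Slc25a14*, also known from brain, was under the filter, at 0 to 0.465 in wt and 0.0203 to 0.553 in *mfn1,2* muscle.

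Of the 5 members of less certain substrate, 3 rose, 1 fell and 1 was too low to test. *Slc25a34* and *Slc25a35* are close relatives without an established substrate. *Slc25a34* ranged from 1.14 to 3.53 (median 1.91) in wt and from 2.34 to 6.37 (median 4.39) in *mfn1,2* muscle and rose by a log2 fold change of 1.09 (limma, adjusted *P* = 2.2e-07). *Slc25a35* ranged from 0.699 to 1.83 (median 1.10) and from 0.784 to 3.54 (median 2.24) and rose by 0.83 (limma, adjusted *P* = 0.000322). The genotypes overlapped in both, and the ratio between the genes was 1.70 in wt and 2.03 in *mfn1,2* muscle (permutation test, adjusted *P* = 0.258).

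*Slc25a46*, the outer membrane member that takes part in mitochondrial shape changes, averaged 11.8 ± 1.38 in wt and 14.1 ± 1.19 in *mfn1,2* muscle and rose by 0.25 (limma, adjusted *P* = 0.000535). It did not pass when libraries were scaled to the upper quartile (0.17, limma, adjusted *P* = 0.0348). *Slc25a47*, known mainly from liver, was at 1.51 ± 0.454 and 1.01 ± 0.399 and fell by 0.57 (limma, adjusted *P* = 0.00509). This call was lost without 1 of the wt libraries (adjusted *P* = 0.0101), numbered 3 in the table, or 1 of the *mfn1,2* libraries (adjusted *P* = 0.0102), numbered 14. *Slc25a53* was under the filter, at 0.0753 to 0.631 in wt and 0.0634 to 0.210 in *mfn1,2* muscle.

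As a share of the summed expression of all 39 carriers, *Slc25a4* held 70.8 ± 2.92% in wt and 70.0 ± 1.30% in *mfn1,2* muscle. *Slc25a3* held 7.24 ± 0.922% and 7.05 ± 0.651%, *Slc25a11* 4.88 ± 1.70% and 3.32 ± 0.412%, and *Slc25a12* 4.29 ± 0.826% and 5.06 ± 0.921%. The mean shares of *Slc25a4* and *Slc25a3* differed between genotypes by less than 1 SD. That of *Slc25a11* was lower in *mfn1,2* muscle, by less than the wt SD. These SDs are spreads between mice, and no test was run on the shares. The shares of *Slc25a11* overlapped, at 3.32 to 9.24% in wt and 2.67 to 4.06% in *mfn1,2* muscle. The highest wt shares of *Slc25a11*, 9.24 and 8.13%, came from libraries that stood apart. *Slc25a5* went from 0.922 ± 0.168% in wt to 2.48 ± 0.338%, and *Slc25a25* from 1.84 ± 0.491% to 0.420 ± 0.213%, both with no overlap. The summed level of the carriers was 1360 ± 111 in wt and 1256 ± 107 in *mfn1,2* muscle on the scaled values.

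**Figure D4:**
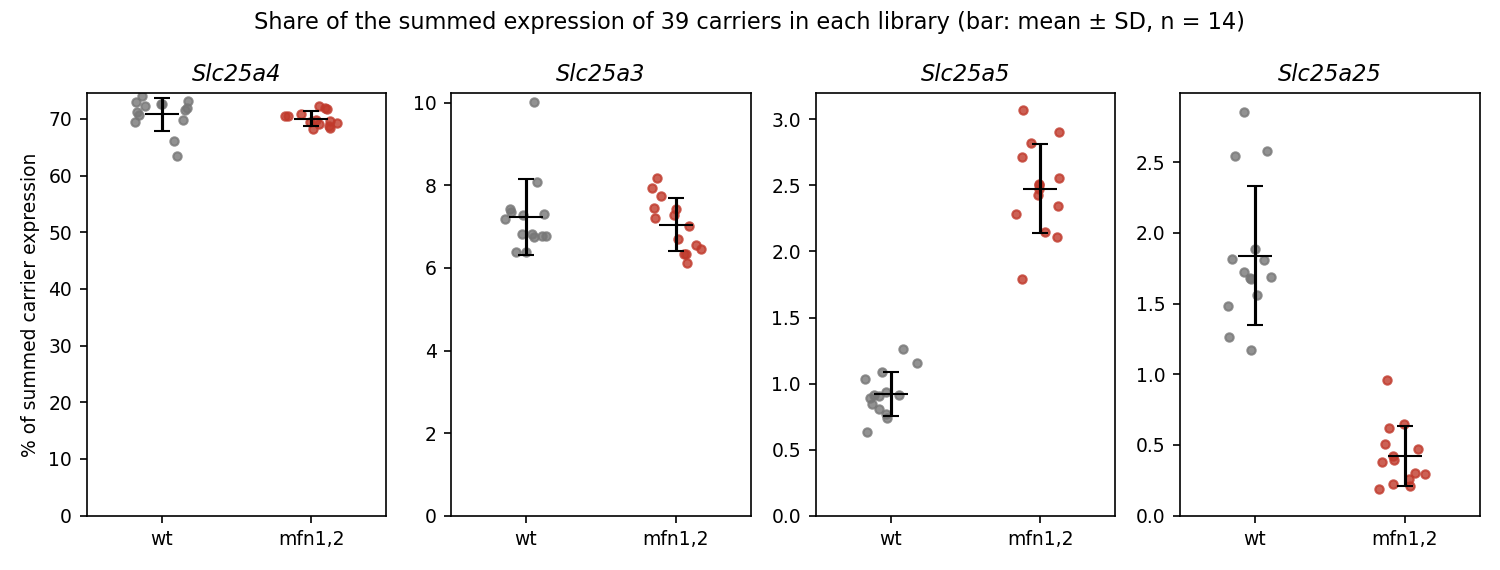
Share of *Slc25a4*, *Slc25a3*, *Slc25a5* and *Slc25a25* in the summed expression of the 39 carriers (y axis, %, starting at 0) in each wt (grey) and *mfn1,2* (red) library, with the mean ± SD of n = 14. *Slc25a4* stays near 70% in both genotypes, while *Slc25a5* is at 0.922% in wt and 2.48% in *mfn1,2* muscle and *Slc25a25* at 1.84% and 0.420%.

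The direction of many carriers depended on how libraries were scaled. The median log2 fold change over all genes was 0.03 with the scaling used, and 0.64 with the values as deposited, 1.04 with equal totals, 0.16 with equal totals of nuclear genes, 0.83 with *Actb* and −0.05 with the upper quartile. Over the 6 scalings 9 carriers, *Slc25a5*, *Slc25a17*, *Slc25a22*, *Slc25a33*, *Slc25a34*, *Slc25a35*, *Slc25a36*, *Slc25a38* and *Slc25a39*, rose in each, and 1, *Slc25a25*, fell in each, with log2 fold changes of −2.41 to −1.28. Of all genes, 23.7% rose and 28.8% fell with the upper quartile, and 79.1% rose and 2.60% fell with equal totals. The scalings thus differed in how many genes could fall in each, and the share of all genes called in all 6 was not computed. *Slc25a29* and *Slc25a30* were below 0 in all of them without passing in all. *Slc25a4*, *Slc25a15* and *Slc25a51* passed as higher in at least 1 scaling and as lower in another. The other falls named above, those of *Slc25a11*, *Slc25a16*, *Slc25a23*, *Slc25a40* and *Slc25a47*, were above 0 with equal totals. With equal totals of nuclear genes *Slc25a11*, *Slc25a15*, *Slc25a16*, *Slc25a40* and *Slc25a47* stayed below 0 but did not pass (limma, adjusted *P* of 0.0132 to 0.0347). Relative to the median over all genes, the position of a carrier shifted by at most 0.187 on the log2 scale between scalings.

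**Figure D5:**
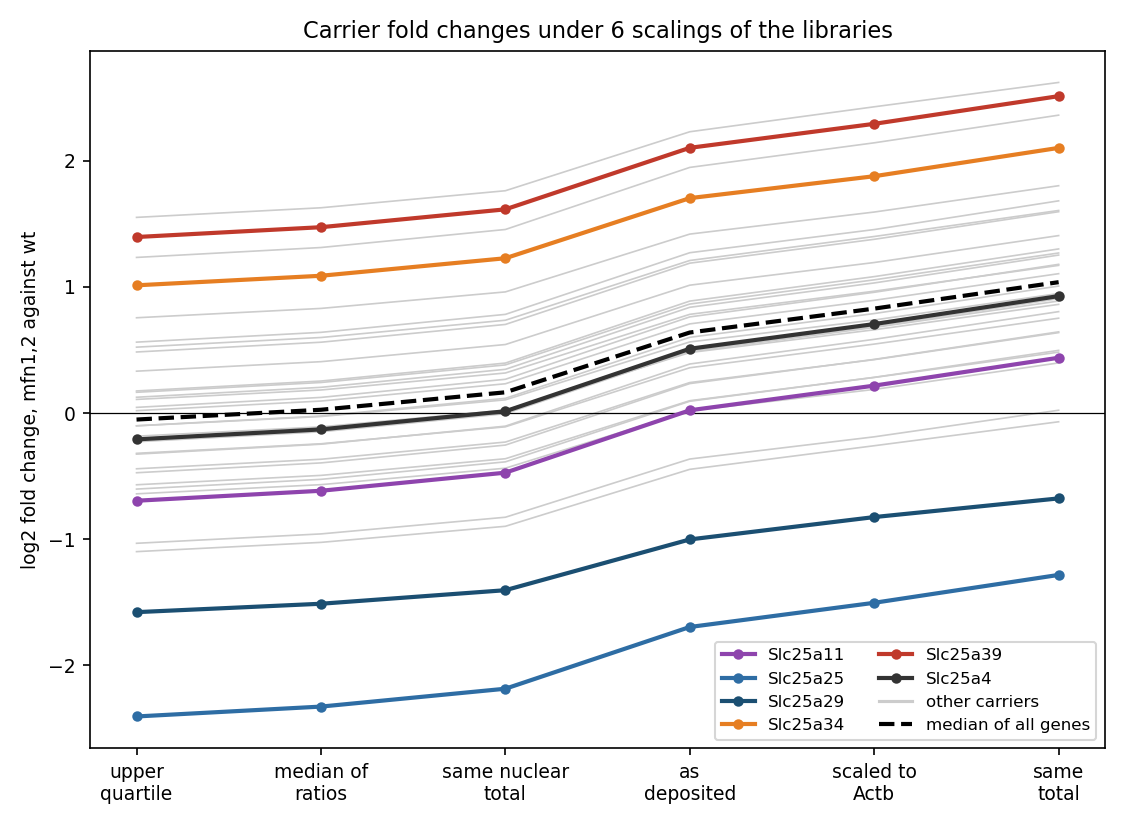
Log2 fold change of the carriers in *mfn1,2* against wt muscle (y axis) under 6 scalings of the libraries (x axis), with 1 line for each carrier shown and the median of all genes dashed. The lines run nearly parallel to the dashed line, which goes from −0.05 to 1.04, with *Slc25a39* and *Slc25a34* above 0 and *Slc25a25* and *Slc25a29* below 0 throughout.

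Whole muscle holds other cells, and in bulk tissue fewer cells of a type and less RNA per cell cannot be told apart. With the same scaling, of 11 fast fiber markers 7 fell and 1 rose, their summed level going from 21715–62931 in wt to 23855–40109 in *mfn1,2* muscle, while 6 of 8 slow fiber markers rose, from sums of 58.5–212 to 106–488. Of 9 macrophage markers tested 8 fell (sums 13.3–39.8 and 9.06–25.6), among them *Ptprc*, which passed the filter through its wt level only, of 10 endothelial markers 8 fell (77.9–119 and 54.0–72.8), and of 10 fibroblast markers 6 fell (197–1487 and 88.1–762). Of 6 adipocyte markers tested 1 rose (79.4–148 and 115–193), and the 5 erythroid markers had log2 fold changes of −0.78 to −0.51 with adjusted *P* of 0.107 to 0.179 (63.5–543 and 42.2–343). Over all genes tested 28.2% rose and 24.9% fell, and none of these markers was at 0 in all libraries. Among the fast fiber markers *Actn3* and *Pvalb* had the largest falls, with log2 fold changes of −4.72 and −3.96. *Myh1* rose by 0.62, and *Myh2*, *Tnnt3* and *Tnnc2*, at 0.63, −0.15 and −0.003, did not pass. By staining of TA sections the paper found no marked change in fiber types. The part of the marker shifts in the levels of the carriers was not tested.

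Other transport and import genes of mitochondria were counted in the same fit, where 28.2% of all genes rose and 24.9% fell. Of 12 other inner membrane transporters tested 4 rose and 3 fell, with a median log2 fold change of 0.05, and 1 of the rises, that of *Sfxn4*, was in a gene that passed the filter on low values through its *mfn1,2* level only. Among them *Ghitm*, which encodes an inner membrane protein linked to calcium and proton exchange, ranged from 81.5 to 118 in wt and from 354 to 635 in *mfn1,2* muscle, and its log2 fold change of 2.31 (limma, adjusted *P* = 2.22e-21) was above that of any tested carrier. *Mcu*, the pore of the calcium uniporter, went from 9.63 ± 1.29 to 14.7 ± 1.47 with no overlap. Of the mitochondrial pyruvate carrier genes, which belong to another family, *Mpc2* fell by 0.42 (limma, adjusted *P* = 0.00144) and *Mpc1* had a log2 fold change of −0.17 (adjusted *P* = 0.226).

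The carriers reach the inner membrane through small chaperones of the intermembrane space and the TIM22 complex. Of 10 genes of this route 5 rose and 1 fell, with a median log2 fold change of 0.21, where 28.2% of all genes rose and 24.9% fell. *Timm8a1* went from 3.48 ± 0.570 to 7.34 ± 0.747 and *Timm10* from 8.95 ± 3.52 to 14.9 ± 2.56, both chaperones, and *Agk*, a kinase in the TIM22 complex, rose by 0.38. *Timm29*, a structural subunit of TIM22, fell by 0.59 (limma, adjusted *P* = 2.56e-08), while *Timm22*, its channel, had a log2 fold change of −0.07. Of the carrier-related outer membrane proteins, *Mtch2*, an insertase, rose by 0.24 and *Mtch1* had a log2 fold change of −0.02. Of the voltage-dependent anion channels of the outer membrane, *Vdac1* fell from 255 ± 39.8 to 174 ± 9.14, *Vdac3* rose from 95.8 ± 10.6 to 119 ± 9.02, and *Vdac2* had a log2 fold change of 0.03, also the median of the 3.

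The 4 enzymes that work with *Slc25a11* and *Slc25a12* in the malate-aspartate shuttle all passed the test, with a median log2 fold change of 0.50. Among all genes 28.2% passed as higher and 24.9% as lower. *Mdh1*, *Got1* and *Got2* rose by log2 fold changes of 0.55, 0.71 and 0.46, and *Mdh2*, the matrix malate dehydrogenase, fell by 0.59 with no overlap (limma, adjusted *P* = 7.68e-08). Of the enzymes that work with *Slc25a20*, *Cpt1b* and *Cpt2*, the carnitine palmitoyltransferases of muscle, rose by 0.39 and 0.59, and *Cpt1a* and *Crat* had log2 fold changes of 0.22 and 0.08 that did not pass, with a median of 0.31 over the 4. With the values as deposited 30 genes of these lists rose, as did 62.3% of all genes. The falls among them, like those of most carriers, are therefore relative to the other genes.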

How the data were processed

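The authors deposited an expression signal for each gene in each library, normalized with DESeq2 by their account. Among the tools in the submitters' processing notes are HISAT2, featureCounts, Trim Galore and DESeq2, and the build is mm9; versions are not given in the sources used here. Libraries were made with a stranded total RNA kit, and whether strand was used in counting is not given in the sources used here. Values above 0 were never whole (100% of them), and the lowest fell with exonic length (slope −1.02 on log-log axes, 262 genes), so the values are not counts, whole reads were not recovered, depth is unknown and no count test was run. Precision rests on 14 replicates per genotype. No pair of libraries shared more than 0.00813% equal values.

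Median-of-ratios factors were computed from 11693 genes above 0 in all 28 libraries and divided out. Genes with a mean of at least 0.5 were fitted with limma 3.58.1 (R 4.3.3; eBayes with trend, genotype only) on log2(value + 0.1), 2-sided, so that fold changes of low genes are understated. Exact 0 values are given as listed. Ratios within a library were compared by permutation of the genotype with scipy 1.17.1, at an adjusted *P* under 0.05 over 9 pairs. Scripts were tested on simulated data. Promoter windows came from RefSeq on GRCm38.p6, which is not the build of the reads, and no coordinate of the table was used.

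The carriers the naming rule finds were named, with the members of the lists; 1 carrier enters the counts but is not reported here. Members and lists were chosen with earlier results of these data known. Alternatives were other scalings, pseudocounts, filters, variance and multiple-testing settings, and leaving out libraries, the last one at a time chosen after seeing the data.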

Additional observations from a re-analysis of the deposited data

How the results depend on the processing

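The counts of carriers that rose and fell, 10 and 11, were 19 and 2 with the values as deposited, 25 and 1 with equal totals, 21 and 1 with *Actb* scaling, 5 and 4 with a minimum mean of 5, which left 14 carriers, and 4 and 3 with Bonferroni adjustment. Over all genes the shares that rose and fell were 62.3 and 4.95%, 79.1 and 2.60%, 65.8 and 3.36%, 35.8 and 24.0%, and 12.1 and 10.3% in that order. With equal totals of nuclear genes 6 fell, where 16.6% of all genes did. Leaving out each library in turn, chosen after seeing the data, gave 10 to 11 rises and 10 to 12 falls. The shares over all genes were not computed for these fits. For the lists of other transport genes, 16 rose and 6 fell, against 30 and 0 as deposited, 32 and 0 with equal totals, 29 and 0 with *Actb* and 4 and 3 with Bonferroni adjustment.

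Of the carriers reported, the log2 fold changes that turned from below to above 0 under these scalings were, as deposited, with equal totals and with *Actb* in that order, 0.021, 0.44 and 0.22 for *Slc25a11*, 0.24, 0.64 and 0.42 for *Slc25a15*, 0.093, 0.50 and 0.28 for *Slc25a16*, 0.56, 0.95 and 0.74 for *Slc25a27*, 0.60, 1.01 and 0.79 for *Slc25a28*, 0.49, 0.91 and 0.69 for *Slc25a3*, 0.51, 0.93 and 0.71 for *Slc25a4*, 0.10, 0.48 and 0.28 for *Slc25a40*, 0.018, 0.40 and 0.19 for *Slc25a47*, 0.23, 0.64 and 0.43 for *Slc25a51*, 0.48, 0.86 and 0.66 for *Slc25a24*, 0.36, 0.75 and 0.55 for *Slc25a26*, 0.49, 0.89 and 0.68 for *Ucp2*, and 0.39, 0.80 and 0.58 for *Ucp3*. That of *Slc25a23* turned with equal totals, to 0.022. *Mfn2* was at −0.019 as deposited (adjusted *P* = 0.886), 0.40 with equal totals and 0.18 with *Actb*. These scalings put the median of all genes at 0.64, 1.04 and 0.83. The *Slc25a12* to *Slc25a13* ratio moved by −0.23 with a pseudocount of 1 (adjusted *P* = 0.161).

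Robust variance, no filter and pseudocounts of 1 and 0.01 changed no call of the 33 carriers reported. Equal totals of nuclear genes lost 5 calls, those of *Slc25a11*, *Slc25a15*, *Slc25a16*, *Slc25a40* and *Slc25a47*, and gained that of *Slc25a20*. Upper quartile scaling lost the call of *Slc25a46* and gained that of *Slc25a4*. Bonferroni adjustment lost 13 calls, and single left-out libraries lost 2 and gained 2. No paired analysis was possible because the columns carry no replicate numbers of the labels, and the fit with age as a covariate was not run for the same reason. Depth is unknown, so counting error of the low carriers, such as *Slc25a13* and *Slc25a29*, cannot be given.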
